A study of Bos indicus with 6 samples.

Results

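The steroid-converting enzymes described here were 10 genes of families whose enzymes convert steroid hormones between more and less active forms, although some of the 10 act mainly on other substrates. They comprised the cortisol-cortisone pair HSD11B1 and HSD11B2, the 17β-hydroxysteroid dehydrogenases HSD17B4, HSD17B8, HSD17B11 and HSD17B12, the steroid reductase family members SRD5A1 and SRD5A3, the steroid sulfatase STS and the estrogen sulfotransferase SULT1E1. The genes were chosen by symbol, and each of the 10 symbols was found once among the 24616 genes of the deposited table.

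RNA-seq was performed on the isthmus, the oviduct segment next to the uterus, of 6 healthy multiparous Nelore (Bos indicus) cows, with 1 library per cow. The LF/LCL cows (large ovulatory follicle and large corpus luteum) were 617, 79 and 527, and the SF/SCL cows (small follicle and small corpus luteum) were 856, 489215 and 97. Every cow had been pre-synchronized with a PGF analog and a GnRH agonist, was given an intravaginal progesterone device together with estradiol benzoate, received PGF at device removal and again some hours later, and was induced to ovulate with GnRH. The LF/LCL cows alone received an additional PGF injection when the device was inserted. The device was taken out 42 h before GnRH in LF/LCL cows and 30 h before GnRH in SF/SCL cows. Tissue of the full oviduct wall, on the side of the corpus luteum, was collected on day 4. The sequenced cows were not a random sample of their groups, because the study ranked its animals and took those ranked highest in LF/LCL and those ranked lowest in SF/SCL.

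Cells of steroid target tissues set their own hormone exposure with such enzymes. HSD11B1 regenerates cortisol from cortisone and HSD11B2 runs the opposite reaction, 17β-hydroxysteroid dehydrogenases oxidise or reduce estrogens and androgens, 5α-reductases convert testosterone and progesterone to reduced metabolites, and STS and SULT1E1 remove or add the sulfate that keeps estrogens from binding their receptor. Several family members also act in fatty acid metabolism or protein glycosylation, so that membership in the family does not by itself make an enzyme part of hormone metabolism. The comparison of the groups addressed whether the enzymes that act locally on steroids differed between cows exposed to different ovarian steroid levels around ovulation.

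The libraries held 23899117 to 34193164 uniquely mapped reads. Levels are given as normalized counts (reads divided by the size factor of the library) in the order 617, 79 and 527 for LF/LCL and 856, 489215 and 97 for SF/SCL. They were not divided by transcript length, so they are not compared between genes. The library of SF/SCL cow 489215 stood apart from all others. It was the highest or the lowest of the 6 in 72.4% of the 15387 genes tested, and in 5 of the 10 enzymes. The median residual SD of all genes on the log2 scale was 0.43 with this library and 0.18 without it. Fold changes of the enzymes and the counts of calls are therefore given with all 6 libraries and without cow 489215. That cow was singled out by these same values, so p-values and SEs without it tend to be too small and serve as description. Fold changes are log2 differences of SF/SCL over LF/LCL on the log2(normalized count + 1) scale, which understates differences of genes with few reads, and adjusted p-values are from limma with Benjamini-Hochberg adjustment over all genes tested.

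**Figure D1:**
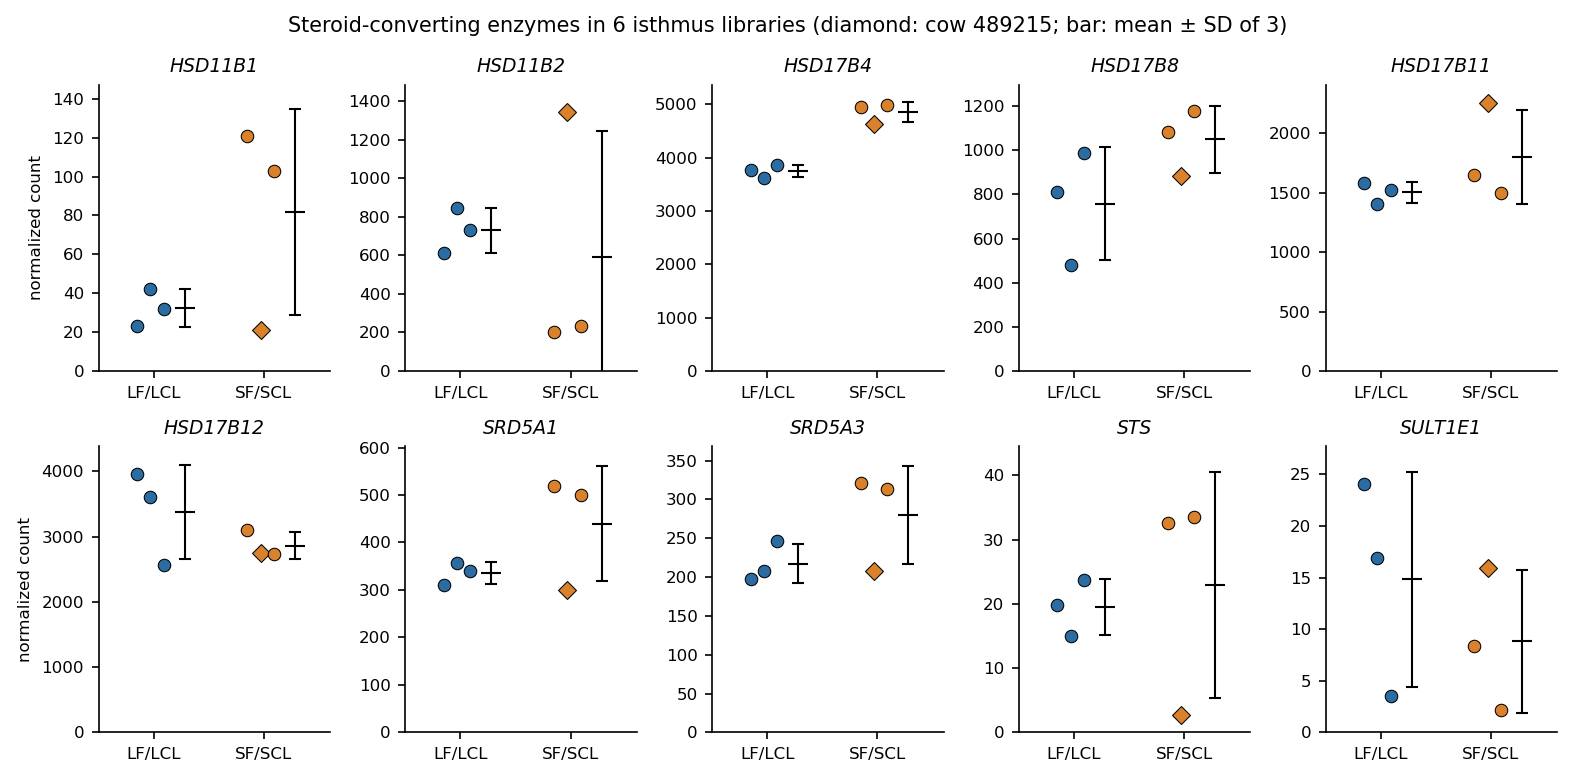
Normalized counts (y axis, starting at 0, a separate scale for each gene) of the 10 enzymes in the 3 LF/LCL and 3 SF/SCL libraries; circles and diamonds are single cows, the diamond is cow 489215, and bars show the mean ± SD of 3 cows (the bar of HSD11B2 in SF/SCL is truncated at 0). The 2 other SF/SCL cows lie close together and away from the LF/LCL cows for HSD11B1 and HSD11B2, in opposite directions. Cow 489215 lies above the LF/LCL cows for HSD11B2 and only just below the lowest of them for HSD11B1.

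No enzyme passed the threshold with all 6 libraries. Limma called 0 of the 10 at an adjusted p below 0.05, where it also called 0% of all genes, and 1 (HSD17B4) at an unadjusted p below 0.05, against 8.66% of all genes. The edgeR quasi-likelihood test with TMM on the recovered reads called 0 enzymes, against 0% of all genes, and had 0 at an unadjusted p below 0.05, against 8.49%. With the size factors of the authors, edgeR also called 0, against 0%, and had 1 at an unadjusted p (HSD17B4), against 8.64%. DESeq2 called 0, against 2.66%, and had 2 at an unadjusted p (HSD11B1 and HSD17B4), against 11.5%. Without cow 489215, limma called 4 enzymes. The 3 higher in SF/SCL were HSD11B1, HSD17B4 and SRD5A1, against 10.3% of all genes called in that direction, and the 1 lower in SF/SCL was HSD11B2, against 7.92%. Leaving out any other cow gave 0 calls.

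The ranges of the groups did not overlap for 1 enzyme of 10, HSD17B4, which was higher in every SF/SCL cow. Over all genes tested, 9.51% were higher in every SF/SCL cow and 8.6% in every LF/LCL cow, so a single such gene among 10 was near the background. Without cow 489215, 6 enzymes were higher in both remaining SF/SCL cows than in every LF/LCL cow, against 27.1% of all genes, and 1 was lower, against 24.9%. The 6 were HSD11B1, HSD17B4, HSD17B8, SRD5A1, SRD5A3 and STS, and the 1 was HSD11B2. The median log2 fold change of the 10 enzymes was 0.29 with all libraries and 0.48 without cow 489215, beside -0.02 and -0.00 over all genes tested. For other hydroxysteroid dehydrogenases and reductases the medians were 0.13 (6 genes tested) and -0.16 (7 genes tested). The 10 enzymes were chosen with earlier results of these data known, so their median does not stand for such enzymes in general.

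**Figure D2:**
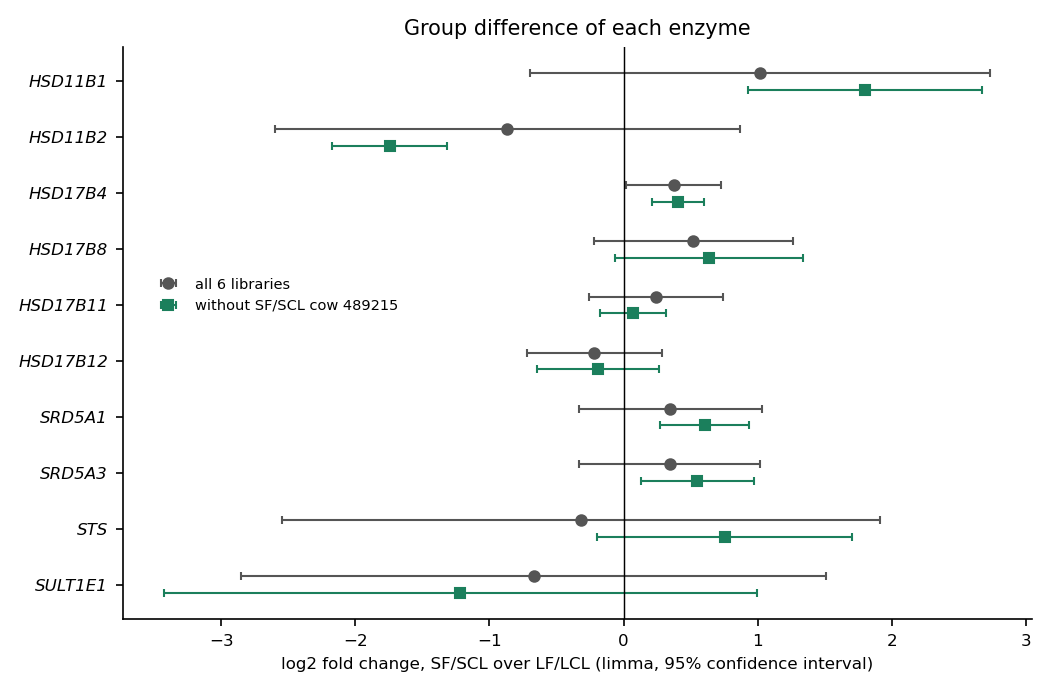
Log2 fold change of each enzyme, SF/SCL over LF/LCL (x axis), from limma with its 95% confidence interval, with all 6 libraries (grey circles) and without cow 489215 (green squares). With all libraries the interval of HSD17B4 alone lies off 0, from 0.02 to 0.73; without cow 489215 the intervals of HSD11B1, HSD11B2, HSD17B4, SRD5A1 and SRD5A3 do.

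The glucocorticoid pair had the largest limma fold changes of the 10 enzymes, with all libraries and without cow 489215, but with edgeR and DESeq2 the all-library fold change of HSD11B2 was below those of SULT1E1, HSD17B8 and SRD5A1 in size. HSD11B1 (ENSBTAG00000015086), the endoplasmic reticulum enzyme that regenerates active cortisol, was at 23.0, 42.2 and 31.6 normalized counts in the LF/LCL cows and at 121, 21.3 and 103 in the SF/SCL cows, from 16 to 159 reads. SF/SCL cows 856 and 97 were above all LF/LCL cows, and cow 489215 was the lowest of the 6, so the groups overlapped. The SF/SCL mean was 81.7 ± 53.0 (SD, n = 3) and the LF/LCL mean was 32.3 ± 9.62 (SD, n = 3). The log2 fold change was 1.02 (SE 0.71, limma adjusted p = 0.785). Without cow 489215 it was 1.80 (SE 0.36, limma adjusted p = 0.0210), a mean 3.46-fold higher in SF/SCL, and without cow 856 it was 0.57. In bulk tissue, fewer cells of a type and less RNA per cell cannot be told apart, and this holds for every gene below.

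HSD11B2 (ENSBTAG00000005685), the enzyme that inactivates cortisol to cortisone, was at 611, 845 and 733 normalized counts in the LF/LCL cows and at 201, 1345 and 231 in the SF/SCL cows. Cows 856 and 97 were the lowest and cow 489215 the highest of the 6, which is the reverse of the order seen for HSD11B1. LF/LCL cows averaged 730 ± 117 (SD, n = 3). SF/SCL cows averaged 592 ± 652 (SD, n = 3), and there the SD exceeded the mean. The log2 fold change was -0.87 (SE 0.72, limma adjusted p = 0.834). Without cow 489215 it was -1.74 (SE 0.18, limma adjusted p = 0.00309), a mean 3.38-fold higher in LF/LCL than in the remaining SF/SCL cows. The all-library value was smaller with DESeq2 (-0.31) and with edgeR (-0.35 with TMM, -0.31 with the size factors of the authors), and limma gave -0.38 without cow 856 and -0.48 without cow 97.

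Read against each other within a library, HSD11B1 had 37.7, 50.0 and 43.1 reads per 1000 reads of HSD11B2 in the LF/LCL cows. The same ratio was 602 in cow 856, 15.8 in cow 489215 and 446 in cow 97. The lower of the ratios of cows 856 and 97 was 8.92 times the highest LF/LCL ratio, whereas cow 489215 was below every LF/LCL cow. These ratios are given as a description with no test.

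H6PD, which supplies HSD11B1 with NADPH in the endoplasmic reticulum, was at 567, 640 and 610 normalized counts in LF/LCL and at 959, 57.2 and 969 in SF/SCL. It was thus above the LF/LCL cows in 856 and 97 and far below them in 489215, with a log2 fold change of -0.68 with all libraries (limma adjusted p = 0.906) and of 0.67 without cow 489215 (limma adjusted p = 0.0124), so the direction turned with that cow. NR3C2, the mineralocorticoid receptor that HSD11B2 shields from cortisol, was at 342, 387 and 357 in LF/LCL and at 445, 78.6 and 471 in SF/SCL. For NR3C2 the difference was -0.50 on the log2 scale with all libraries (limma adjusted p = 0.895) and 0.34 without cow 489215 (limma adjusted p = 0.136). The glucocorticoid receptor gene NR3C1 was not analysed here.

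Of 8 transcriptional targets of the glucocorticoid receptor that were found and tested, 0 were called in either fit. Over all genes, limma called 0% with all libraries. Without cow 489215 it called 10.3% higher and 7.92% lower in SF/SCL. FKBP5, the co-chaperone that is a standard readout of glucocorticoid action, was at 20779, 21990 and 21741 normalized counts in LF/LCL and at 23871, 31957 and 14964 in SF/SCL. The SF/SCL cows lay on both sides of the LF/LCL cows, with cows 856 and 489215 above all of them and cow 97 below. FKBP5 had a log2 fold change of 0.07 (limma adjusted p = 0.966), and -0.19 without cow 489215 (limma adjusted p = 0.535). DUSP1, a phosphatase gene induced by glucocorticoids and by stress, was the 1 gene of the list at an unadjusted p below 0.05, with 3071, 3770 and 3541 in LF/LCL and 4302, 8184 and 5807 in SF/SCL. All 3 SF/SCL cows were above the LF/LCL cows, with a log2 fold change of 0.77 (limma adjusted p = 0.480), and of 0.54 without cow 489215 (limma adjusted p = 0.0590).

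**Figure D3:**
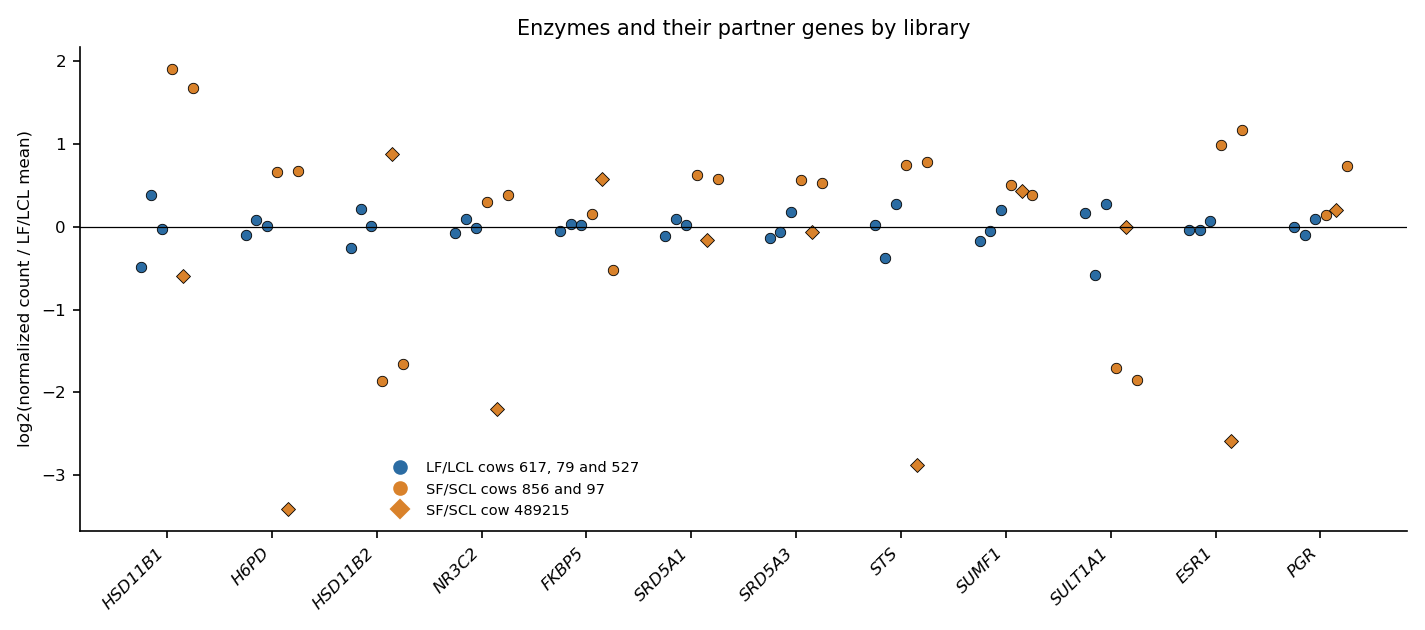
Enzymes of the 10 and their partner genes by library, as the log2 ratio of the normalized count to the LF/LCL mean of the same gene (y axis); blue circles are LF/LCL cows, orange circles SF/SCL cows 856 and 97, and orange diamonds SF/SCL cow 489215. HSD11B1, H6PD, NR3C2, SRD5A1, SRD5A3, STS and ESR1 are above the LF/LCL mean in cows 856 and 97 and below it in cow 489215, HSD11B2 shows the reverse, and SUMF1 is above it in all 3 SF/SCL cows.

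Among the 17β-hydroxysteroid dehydrogenases, HSD17B4 (ENSBTAG00000006978) had the fold change with the smallest SE. HSD17B4 is a peroxisomal multifunctional enzyme that oxidises estradiol to estrone and takes part in the β-oxidation of fatty acids. It was at 3773, 3623 and 3855 normalized counts in the LF/LCL cows and at 4942, 4638 and 4984 in the SF/SCL cows. Each SF/SCL cow, 489215 included, was above each LF/LCL cow. The SF/SCL mean of 4855 ± 189 (SD, n = 3) was 1.29 times the LF/LCL mean of 3750 ± 118 (SD, n = 3). The log2 fold change was 0.37 (SE 0.15, 95% interval 0.02 to 0.73, limma adjusted p = 0.553), and 0.40 without cow 489215 (SE 0.08, limma adjusted p = 0.0204).

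The other 3 dehydrogenases were not called in either fit. HSD17B8 (ENSBTAG00000020927), which can oxidise estradiol and is part of mitochondrial fatty acid synthesis, was at 810, 480 and 985 normalized counts in LF/LCL and at 1085, 884 and 1179 in SF/SCL. Cow 489215 lay inside the wide LF/LCL range, and the log2 fold change was 0.52 (SE 0.31, limma adjusted p = 0.734) or, without that cow, 0.64 (SE 0.29, limma adjusted p = 0.178). Without LF/LCL cow 79, the lowest of the 6, the log2 fold change of HSD17B8 was 0.22. HSD17B11 (ENSBTAG00000006307), a lipid droplet enzyme that acts on an androgen metabolite, was at 1582, 1403 and 1523 in LF/LCL and at 1650, 2254 and 1501 in SF/SCL. Cow 489215 alone stood out as high. Its log2 fold change of 0.24 (SE 0.21, limma adjusted p = 0.838) became 0.07 without that cow (95% interval -0.18 to 0.31, limma adjusted p = 0.681).

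HSD17B12 (ENSBTAG00000000087), the ketoacyl-CoA reductase of fatty acid elongation that has also been described as an estrone reductase, was at 3957, 3609 and 2566 normalized counts in LF/LCL and at 3104, 2755 and 2727 in SF/SCL. All SF/SCL cows lay within the LF/LCL range. The log2 fold change was -0.22 (95% interval -0.72 to 0.29, limma adjusted p = 0.859), and -0.19 without cow 489215 (limma adjusted p = 0.526). It was -0.40 without cow 527 and -0.09 without cow 617.

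Both reductase family members had a similar profile over the cows. SRD5A1 (ENSBTAG00000015478), the 5α-reductase of testosterone and progesterone, was at 310, 357 and 340 normalized counts in the LF/LCL cows and at 519, 299.6 and 501 in the SF/SCL cows. SRD5A3 (ENSBTAG00000014913), a polyprenol reductase needed for protein N-glycosylation, was at 198, 208 and 246 in LF/LCL and at 321, 208 and 313 in SF/SCL. In both genes cows 856 and 97 were above every LF/LCL cow, while cow 489215 was the lowest of the 6 for SRD5A1 and within the LF/LCL range for SRD5A3. SRD5A1 had a log2 fold change of 0.35 (SE 0.28, limma adjusted p = 0.832), and 0.60 without cow 489215 (SE 0.14, limma adjusted p = 0.0307). Without cow 856 it was 0.21. That of SRD5A3 was 0.35 (SE 0.28, limma adjusted p = 0.832), and 0.55 without cow 489215 (SE 0.18, limma adjusted p = 0.0777).

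The estrogen sulfate pair was measured from few reads. STS (ENSBTAG00000020789), which frees estrogens and other steroids from their sulfates, was at 19.9, 15.0 and 23.7 normalized counts in LF/LCL and at 32.7, 2.66 and 33.6 in SF/SCL. These values rested on 19, 16 and 27 reads in LF/LCL and on 43, 2 and 31 reads in SF/SCL. For the 2 reads of cow 489215 the exact Poisson 95% interval was 0.242 to 7.22 reads, which covers counting error only and lies below the reads of every other cow. STS had a log2 fold change of -0.32 (SE 0.93, limma adjusted p = 0.951) and became 0.75 without cow 489215 (SE 0.40, limma adjusted p = 0.234), so its direction rested on that cow. Leaving out another cow gave -0.86 to -0.17, and edgeR and DESeq2 with all libraries gave 0.24 to 0.25.

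SULT1E1 (ENSBTAG00000011952), which inactivates estrogens by adding sulfate, was at 24.1, 16.9 and 3.51 normalized counts in LF/LCL and at 8.36, 16.0 and 2.17 in SF/SCL, from 2 to 23 reads. The groups overlapped widely, with low values in cow 527 of LF/LCL and cow 97 of SF/SCL. Its log2 fold change was -0.67 (95% interval -2.85 to 1.51, limma adjusted p = 0.892), and -1.22 without cow 489215 (limma adjusted p = 0.40). Leaving out other cows gave values from -1.41 (without cow 527) to -0.01 (without cow 97). STS had 0.826, 0.889 and 6.75 reads per read of SULT1E1 in the LF/LCL cows and 3.91, 0.167 and 15.5 in the SF/SCL cows, and the ranges of the groups overlapped.

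The genes that activate STS and feed SULT1E1 were well measured. SUMF1, the enzyme that gives sulfatases such as STS their catalytic residue, was at 1973, 2144 and 2559 normalized counts in LF/LCL and at 3155, 2992 and 2889 in SF/SCL. All SF/SCL cows were above all LF/LCL cows, with a log2 fold change of 0.44 (limma adjusted p = 0.526), and of 0.45 without cow 489215 (limma adjusted p = 0.0586). PAPSS1 and PAPSS2 make the sulfate donor of sulfotransferases. PAPSS1 was at 3339, 3637 and 3242 in LF/LCL and at 2906, 3932 and 3103 in SF/SCL (log2 fold change -0.05, limma adjusted p = 0.959, and -0.18 without cow 489215, limma adjusted p = 0.225). PAPSS2 was at 278, 196 and 199 in LF/LCL and at 179, 70.6 and 138 in SF/SCL (log2 fold change -0.88, limma adjusted p = 0.639, and -0.50 without cow 489215, limma adjusted p = 0.206). PAPSS2 was below the LF/LCL range in all 3 SF/SCL cows, whereas PAPSS1 overlapped.

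The wider steroid pathway was described with 6 lists of 74 genes, of which 59 were found once and 45 were tested. With all libraries limma called 0 of them, and 3 had an unadjusted p below 0.05 (HSDL2, SUMF1 and DUSP1, each higher in SF/SCL), against 8.66% of all genes. The edgeR and DESeq2 tests called 0 as well. Without cow 489215, 5 were called higher in SF/SCL, against 10.3% of all genes, and 3 lower, against 7.92%, so the counts of the lists were near the background in both directions. The median log2 fold change of the 45 was -0.05 with all libraries and -0.10 without cow 489215.

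Steroid synthesis had 9 tested genes of 12 found, 5 with a higher and 4 with a lower fitted value in SF/SCL, and 1 call without cow 489215. That gene was POR, the electron donor of microsomal cytochromes P450, at 3212, 3283 and 3133 normalized counts in LF/LCL and at 2122, 2936 and 1987 in SF/SCL. POR was lower in every SF/SCL cow, by a log2 fold change of -0.47 (limma adjusted p = 0.578) and of -0.64 without cow 489215 (limma adjusted p = 0.00605). STAR, which delivers cholesterol to mitochondria, was at 104, 106 and 148 in LF/LCL and at 118, 258 and 127 in SF/SCL, with cow 489215 the highest. CYP11A1, which makes pregnenolone, was at 226, 114 and 99.3 in LF/LCL and at 105, 153 and 145 in SF/SCL, with overlapping groups.

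CYP17A1, CYP19A1 and HSD3B1, which act further along the synthesis of sex steroids, had few or 0 reads. CYP17A1, which makes androgens, had 1 to 22 reads. The aromatase gene CYP19A1 had 1 read in cow 856 and 0 in the other libraries, where up to 3 expected reads are still possible at a count of 0. HSD3B1, which makes progesterone and is named HSD3B in the table, had 0 to 7 reads.

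The other dehydrogenases and reductases had 6 tested genes of 14 found, 4 with a higher fitted value in SF/SCL, and 1 call without cow 489215. It was HSDL2, a peroxisomal relative of HSD17B4 linked to fatty acid metabolism, at 1529, 1427 and 1348 normalized counts in LF/LCL and at 2045, 2347 and 1828 in SF/SCL. Like HSD17B4 it was higher in every SF/SCL cow, with a log2 fold change of 0.53 (limma adjusted p = 0.465) and of 0.43 without cow 489215 (limma adjusted p = 0.0354). SRD5A2, the 5α-reductase of the prostate, and HSD17B2, which oxidises estradiol and testosterone, had 0 reads in every library.

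The list of conjugation, its cofactors and hydroxylation had 13 tested genes of 16 found, 4 with a higher and 9 with a lower fitted value in SF/SCL, and 3 calls without cow 489215. The 2 lower in SF/SCL among these calls were SULT1A1 and SULT2B1, named after their values were seen. SULT1A1, a phenol sulfotransferase that also sulfates estrogens, was at 7962, 4731 and 8539 normalized counts in LF/LCL and at 2178, 7058 and 1955 in SF/SCL. SULT2B1, which sulfates cholesterol and pregnenolone, was at 281, 191 and 242 in LF/LCL and at 43.3, 570 and 27.1 in SF/SCL. Both were low in cows 856 and 97 and not in cow 489215, as was HSD11B2, with log2 fold changes without cow 489215 of -1.73 (limma adjusted p = 0.00824) and -2.74 (limma adjusted p = 0.00395).

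The NADPH supply list had 4 tested genes of 4 found, 3 with a higher fitted value in SF/SCL, and 2 calls without cow 489215. H6PD, described above, was among them.

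The nuclear receptors had 5 tested genes of 5 found, 1 with a higher fitted value in SF/SCL with all libraries, and 1 call without cow 489215. ESR1, which encodes estrogen receptor α, was at 3571, 3572 and 3834 normalized counts in LF/LCL and at 7235, 608 and 8211 in SF/SCL. It was highest in cows 856 and 97 and lowest in cow 489215. Its log2 fold change was -0.14 with all libraries (limma adjusted p = 0.977) and 1.08 without cow 489215 (limma adjusted p = 0.00247), so the direction turned with that cow. PGR, the progesterone receptor, was at 334, 310 and 357 in LF/LCL and at 368, 382 and 554 in SF/SCL (log2 fold change 0.36, limma adjusted p = 0.785, and 0.44 without cow 489215, limma adjusted p = 0.187). All SF/SCL cows were above the LF/LCL cows for PGR, by little in cows 856 and 489215.

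**Figure D4:**
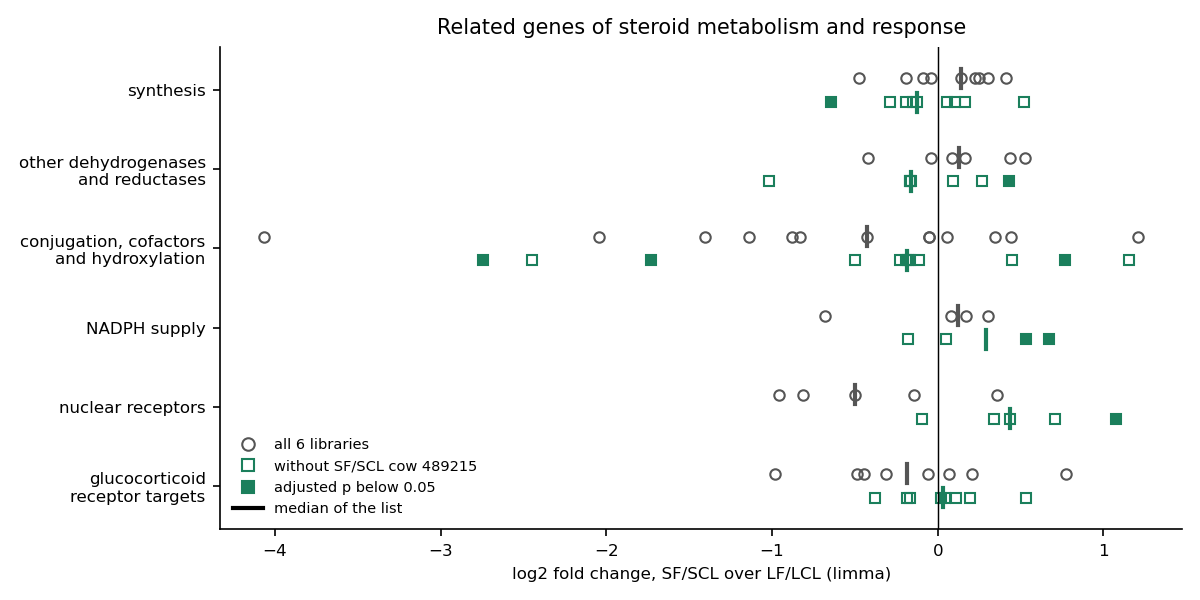
Limma log2 fold changes (x axis, SF/SCL over LF/LCL) of the tested genes of 6 lists of steroid metabolism and response, with all 6 libraries (open grey circles) and without cow 489215 (green squares, filled where the adjusted p is below 0.05); vertical ticks are list medians. With all libraries 0 genes are called, and without cow 489215 the 8 filled squares lie on both sides of 0.

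Markers of the cell types in the oviduct wall also differed between the libraries. Secretory epithelium (6 of 6 genes found) summed to 13511 to 16712 normalized counts in LF/LCL and to 305751, 48016 and 360375 in the SF/SCL cows. Single genes carried these sums: OVGP1, an oviduct secretory glycoprotein gene named after its values were seen, like all genes of this and the next paragraph, gave 271794 and 325158 in cows 856 and 97 and 730 in cow 489215, where WFDC2 gave 29355. Smooth muscle (5 of 6) summed to 678407 to 798919 in LF/LCL and to 308670, 1183222 and 372275 in SF/SCL, and fibroblasts (6 of 6) to 252265 to 313954 and to 120068, 205424 and 127266. In cows 856 and 97, HSD11B1, SRD5A1 and STS were high and HSD11B2 was low. The sums of these cows lay on one side of LF/LCL for each of these 3 lists. Cow 489215 lay on the other side for smooth muscle. MYH11 of that list did not follow the sum in cow 489215, at 116653 against 137623 to 191119 in LF/LCL.

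Mesothelium (4 of 5 genes found) summed to 1443 to 2040 normalized counts in LF/LCL and to 8659, 1184 and 8630 in SF/SCL. That sum was mostly WT1, at 8611, 1037 and 7984 in the SF/SCL cows, whereas LRRN4 of the same list was at 283, 412 and 175 in LF/LCL and at 3.80, 5.32 and 16.3 in SF/SCL. Ciliated epithelium (8 of 8) summed to 28300 to 35581 in LF/LCL and to 45757, 27112 and 50963 in SF/SCL. Genes of the uterine epithelium and glands (4 of 6) summed to 2359 to 2874 in LF/LCL and to 850.0, 6275 and 957 in SF/SCL. HOXA10 carried that sum with 671, 5991 and 720 in SF/SCL, and FOXA2 of the same list did not follow it, at 465, 421 and 178 in LF/LCL and at 174, 256 and 234 in SF/SCL. General epithelium (6 of 6) summed to 28006 to 41159 in LF/LCL and 41541 to 57894 in SF/SCL. The part of these cell types in the results of the enzymes was not tested.

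Endothelium (5 of 6 genes found) summed to 11244 to 14554 normalized counts in LF/LCL and 9839 to 13326 in SF/SCL, and leukocytes (6 of 6) to 1906 to 3301 and 1775 to 2888, with overlapping groups in both. Luteal and ovarian steroidogenic cells (6 of 6) summed to 249 to 366 in LF/LCL and 247 to 465 in SF/SCL, and erythrocytes (3 of 5) to at most 6.7 in any library. The ciliated gene PIFO was at 0 in every library, and the luteinizing hormone receptor gene LHCGR of the luteal list was at 0 in 3 of them. The epithelial, ciliated and muscle markers of an oviduct wall were present in all 6 libraries.

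Of 43 marker genes tested with all libraries, limma called 0, and 11 were at an unadjusted p below 0.05, against 8.66% of all genes. The epithelial genes KRT7 (log2 fold change 1.68), EPCAM (0.85), KRT8 (0.76) and KRT18 (0.54) and the ciliary gene DNAI1 (1.19) had higher fitted values in SF/SCL. A lower fitted value was that of the epithelial gene CDH1 (-0.81), which is on the same list as EPCAM, KRT8 and KRT18. The collagen genes COL1A1 (-1.14) and COL1A2 (-1.10), the fibroblast genes LUM (-1.002) and PDGFRA (-0.86), and the endothelial gene CDH5 (-0.87) were also lower. Without cow 489215, 10 of 45 markers tested were called higher in SF/SCL, against 10.3% of all genes, and 14 lower, against 7.92%. They included 6 of 7 ciliated genes among the higher, and 6 of 6 fibroblast and 4 of 5 smooth muscle genes among the lower.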

How the data were processed

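RNA-seq libraries of the isthmus of 6 cows were analysed. The deposited signal values are read counts per gene, scaled by the authors before deposit with one DESeq size factor per library. Reads were filtered with seqyClean, aligned to the masked UMD 3.1 bovine assembly and counted where uniquely mapped. The submitters' processing notes name CASAVA 1.8.2, TopHat2 2.0.8, Bowtie2 2.1.0, SAMtools 0.1.18, HTSeq 0.5.4p2 and DESeq 1.12.1, and whether counting used the strand is not given in the sources used here, so overlapping genes on opposite strands may share reads. Whole reads were recovered: 100% of the 147696 deposited values lay within 0.05 of a whole number of reads.

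The test covered genes whose mean normalized count exceeded both 5 and their own SD (15387 genes, or 15495 without cow 489215), after the filter in the study's methods. The test was limma 3.58.1 in R 4.3.3 on log2(value + 1), SF/SCL against LF/LCL without covariates, at a Benjamini-Hochberg adjusted p of 0.05. The smallest adjusted p over all genes was 0.351. The edgeR 4.0.16 quasi-likelihood test and DESeq2 1.42.0 on the recovered reads, other filters, pseudocounts and normalization, and leaving out each cow were alternatives. The limma, edgeR and DESeq2 scripts were tested on simulated data. Tables and plots used Python 3.11.15, numpy 2.4.6, pandas 2.3.3, scipy 1.17.1 and matplotlib 3.10.9.

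The 10 enzymes, the 6 related lists and the 11 marker lists were chosen with earlier results of these data known. Of the related genes, 59 of 74 matched a single entry by symbol, and CYP3A5, with 2 entries, and 14 others were not used here. Symbols of 3 genes were matched under other names (CDH1 as E-CADHERIN, HSD3B1 as HSD3B, CFAP43 as WDR96). Named genes were the 10 enzymes, 16 partner genes, and up to 3 genes per direction of each list with the largest fold change at an unadjusted p below 0.05. Values of some genes of the lists are not reported here. No sequence or position is given.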

Additional observations from a re-analysis of the deposited data

How the results depend on the processing

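Of 140 values (the log2 fold changes of the 10 enzymes under 14 alternatives), 132 kept their direction and their side of the threshold, 4 passed the threshold (HSD11B1, HSD11B2, HSD17B4 and SRD5A1 without cow 489215) and 4 turned direction, while 9 of the 10 enzymes kept their direction throughout. The 4 that turned were all of STS, at 0.24 with edgeR and TMM, 0.25 with edgeR and the size factors of the authors, 0.25 with DESeq2 and 0.75 without cow 489215, and the cause was not tested for the first 3. With all libraries the mean normalized count of STS in SF/SCL was 1.18 times that in LF/LCL, whereas the mean on the log2 scale was lower in SF/SCL. For every enzyme but HSD17B4, a value that kept its direction moved by over 1.5 times with 1 cow left out, as given above. SULT1E1 ranged from -1.41 to -0.01 and HSD11B1 from 0.57 to 1.80, whereas HSD17B4 stayed at 0.35 to 0.40. Leaving out each cow in turn gave STS values of -0.86 to 0.75, and counts of 0 to 4 enzymes, 0 to 8 related genes and 0 to 2827 of all genes past the threshold, the highest each time without cow 489215 and 0 without any other cow. DESeq2 called 409 of all genes, 0 of the enzymes and 0 of the related genes, where limma called 0. No paired analysis was possible because the groups share no cow numbers. STS and SULT1E1 rested on at most 43 reads a library, so their fold changes are the least precise. With 3 cows a group, an adjusted p above the threshold does not show that an enzyme was equal in the groups, and the fit without cow 489215 rests on 2 SF/SCL cows.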

Other observations

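Among the related genes, UGT1A6 and HSD17B13 differed widely between the libraries, and both were picked after their values were seen. UGT1A6, a glucuronosyltransferase gene, was at 3215, 2115 and 1169 normalized counts in LF/LCL cows 617, 79 and 527, at 4729 in SF/SCL cow 489215, and at 2.28 and 108 in SF/SCL cows 856 and 97. Its log2 fold change was -4.07 with all libraries (limma adjusted p = 0.733), and it missed the filter on variable genes without cow 489215. HSD17B13, a lipid droplet relative of HSD17B11, had 60, 243 and 30 reads in the LF/LCL cows, 302 in cow 489215, and 2 and 0 in cows 856 and 97, and missed the same filter with all libraries. In both genes cows 856 and 97 were the lowest of the 6 and cow 489215 the highest, as for HSD11B2 and SULT2B1.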
